A study of Homo sapiens with 8 samples.

Results

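The genes of the ADAM and ADAMTS proteases were taken as every gene symbol that began with ADAM, which also brought in the ADAMTS-like (ADAMTSL) genes. Of the 30017 symbols in the tables, 54 began with these letters. The names ADAM20P1, ADAM21P1 and ADAMTS7P1 were left out as pseudogenes, and ADAMTS9-AS2 and ADAMTSL4-AS1 as antisense RNAs, so that 49 genes remained: 25 ADAM, 19 ADAMTS and 5 ADAMTSL genes. ADAM1A, ADAM3A, ADAM5 and ADAM6 are also known as pseudogenes in human, but their symbols do not say so, and they stayed in the set.

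ADAM proteins are cell surface proteins with a metalloprotease and a disintegrin domain. Many of them act as sheddases, which cut the outer part of growth factor precursors, receptors and adhesion molecules off the membrane. ADAMTS proteases are secreted, carry thrombospondin repeats and cut matrix proteins such as proteoglycans and procollagens, while ADAMTSL proteins share those repeats but lack the protease domain. The sheddases ADAM10 and ADAM17 are active in most epithelial cells, where they release ligands of the EGF receptor and cut Notch receptors, and ADAM12 and ADAM19 belong to the branch of the family often linked to TGF-β and to tissue remodelling.

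Expression was measured by RNA sequencing of A549-S3KO, a human lung adenocarcinoma line (A549) with a disrupted SMAD3 gene. All 4 groups carry this knockout and a lentiviral Smad3, which is the wild type in 2 of them (wild-type cells below) and the mutant Smad3(RA/KP), with the substitutions R104K and A105P, in the others. Each of these lines was grown on collagen and sampled unstimulated or treated with TGF-β (1 ng/ml) for 8 h, with n = 2 libraries per group. The infected cells were cloned by limiting dilution and the clones that were sequenced are not named in the sources used here, so the form of Smad3 and the clone cannot be told apart.

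Levels are given as TPM (a share of all transcripts), which is scaled for gene length and can be compared between genes. Bases mapped to genes ran from 1.149 to 1.809 Gb per library, and 12773 to 13281 genes had a TPM of at least 1. SMAD3 stood at 137 to 187 TPM, which counts reads of the introduced cDNA and of the disrupted gene together. Of 10 epithelial markers of A549 cells, 9 reached 1 TPM, and the sum of the list was 16171 to 21877 TPM. Of 16 markers of other cell types, CD68 and LUM reached 1 TPM, 9 were listed at 0 throughout, and the sum was 56.4 to 105 TPM. The epithelial marker KRT19 was listed at 0 in every library, so a value of 0 is reported below only as listed. Of 128 ribosomal protein, proteasome and RNA polymerase II genes, 3 were listed at 0 in any library, PSMA8, PSMB11 and RPL3L, which are known for their restriction to testis, thymus and muscle. In bulk RNA, fewer cells of a kind and less RNA per cell cannot be told apart. The 2 untreated Smad3(RA/KP) libraries differed from each other in their relation to transcript GC content. Over 12426 genes the difference between replicates 2 and 1 correlated with GC content at −0.585 by Spearman's rho in that group, and at 0.101 to 0.224 elsewhere. A difference within a pair does not show which of the 2 libraries departs.

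Most of these protease genes had low values or were listed at 0 in A549-S3KO cells. A mean of at least 1 TPM over the 8 libraries was reached by 18 of the 49 genes (10 ADAM, 7 ADAMTS and 1 ADAMTSL gene), and a mean of at least 10 TPM by 7. Of all 30017 symbols, 13141 reached a mean of 1 TPM, so most genes of any kind were under this level too. The summed level of all 49 was 234 and 237 TPM in untreated cells with wild-type Smad3 and 308 and 335 TPM with TGF-β. In Smad3(RA/KP) cells the sums were 241 and 269 TPM untreated and 343 and 299 TPM treated, so the treated libraries lay above the untreated ones in both lines. This rested on ADAM19: without it the sums were 225 and 224 TPM untreated and 218 and 234 TPM treated with wild-type Smad3, and 226 and 248 TPM untreated and 256 and 215 TPM treated with Smad3(RA/KP), and the groups overlapped. ADAM9, ADAM15 and ADAM19 held 61.8% of the total.

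**Figure D1:**
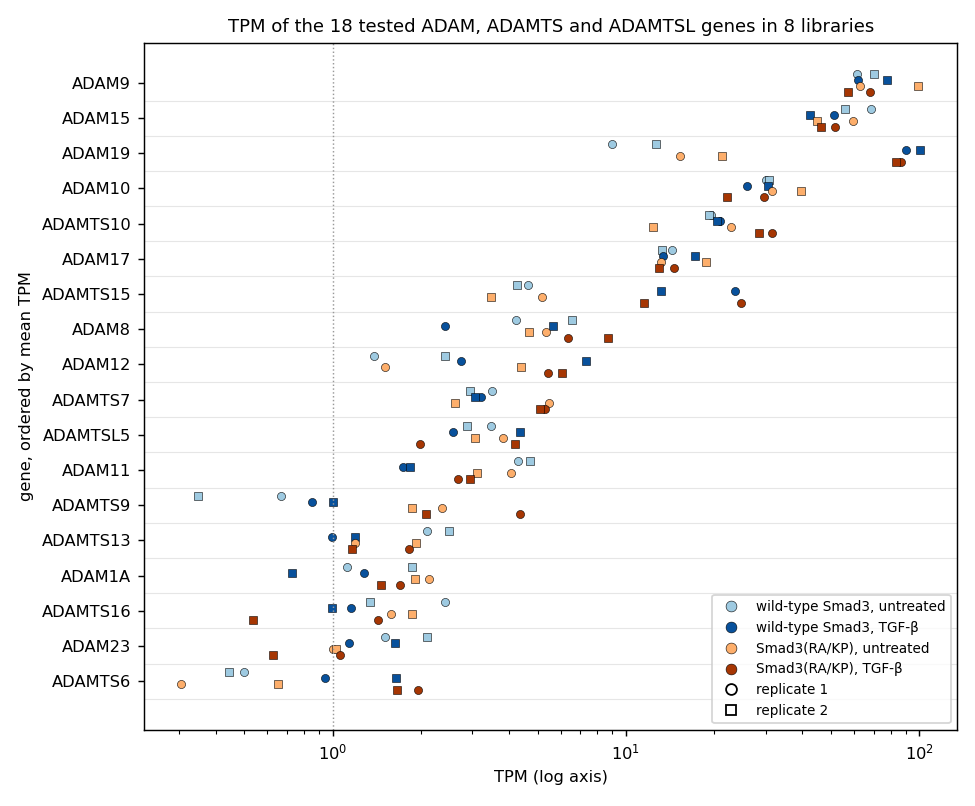
TPM (horizontal log axis) of the 18 genes whose mean reached 1 TPM, ordered by their mean, with blue for wild-type Smad3 and orange for Smad3(RA/KP) cells, dark shades for TGF-β, circles for replicate 1 and squares for replicate 2, and a dotted line at 1 TPM. For ADAM19 the treated libraries at 83.7 to 101 TPM stand apart from the untreated ones at 9.0 to 21.2 TPM, and for ADAMTS15 those at 11.5 to 24.7 TPM from those at 3.48 to 5.19 TPM, while ADAM10 and ADAM17 stay close together.

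The response to TGF-β was tested with limma on log2(TPM + 1), over all 13141 genes whose mean reached 1 TPM, with the replicate number as a block and Benjamini-Hochberg adjustment at a threshold of 0.05. Fold changes below are on this log2(TPM + 1) scale, which understates the change of weakly expressed genes. ADAM19 and ADAMTS15 rose in both lines, and no other gene of the set passed the test in any comparison. In cells with wild-type Smad3 these were 2 of 18 tested genes, where 4.68% of all genes were called. Both were higher, against 2.94% of all genes, and 0 were lower, against 1.74%. With Smad3(RA/KP) they were again 2 of 18, against 4.98% of all genes, with 2 higher, against 3.49%, and 0 lower, against 1.5%. The median log2 fold change of the 18 was 0.02 with wild-type Smad3, against −0.06 over all genes tested, and −0.06 in Smad3(RA/KP) cells, against −0.10. At an unadjusted p under 0.05, limma had 5 of the 18 (27.8%) in each line, against 16.5% of all genes with wild-type Smad3 and 21.9% with Smad3(RA/KP). ADAMTS6, among the 5 with Smad3(RA/KP), met the minimum mean of 1 TPM only through its treated libraries, so its part in that share depends on the filter.

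Without regard to the test, the treated libraries lay above both untreated ones in 6 of the 18 genes with wild-type Smad3, against 17.8% of all genes, and below both in 4, against 27.9%. With Smad3(RA/KP) the counts were again 6 above, against 19.0%, and 4 below, against 25.4%. ADAM12, ADAM19, ADAMTS6, ADAMTS10 and ADAMTS15 lay above in both lines, and ADAM11 and ADAMTS16 lay below in both. The place of ADAMTS6 in these counts depends on the filter, which it met only through its treated libraries.

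**Figure D2:**
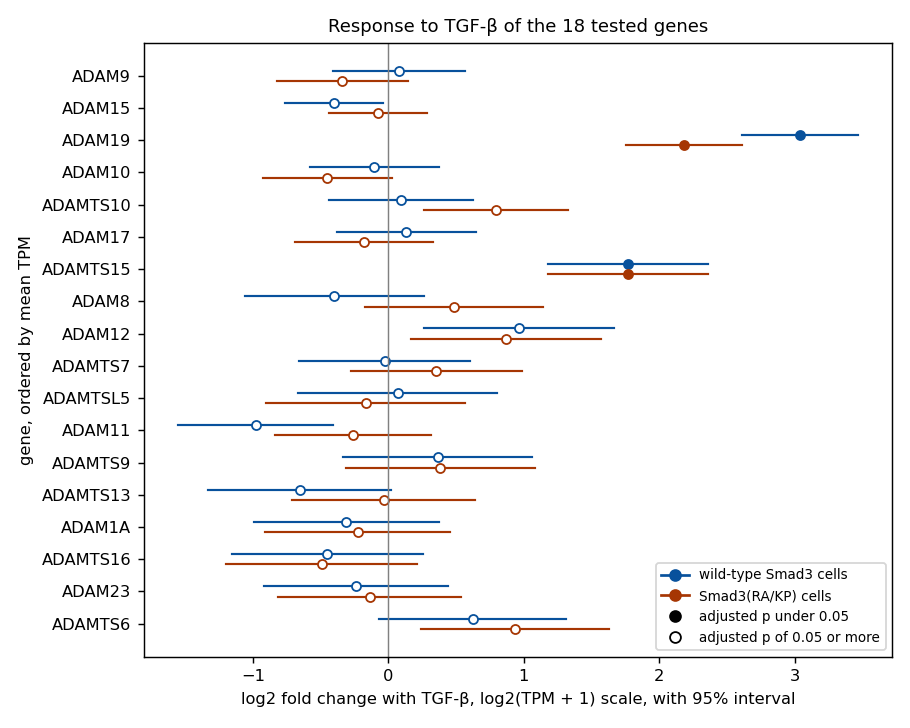
Log2 fold change with TGF-β on the log2(TPM + 1) scale (horizontal axis) of the 18 tested genes, in blue for wild-type Smad3 and in brown for Smad3(RA/KP) cells, with bars for the 95% interval of limma and filled points where the adjusted p is under 0.05. The filled points are those of ADAM19, at 3.04 and 2.18, and of ADAMTS15, at 1.77 in both lines, and the other values lie between −0.98 and 0.97.

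ADAM19, also named meltrin beta, is a sheddase known to cut neuregulin 1 and is expressed in developing heart, nerve and muscle. Its record lies on the minus strand of chromosome 5 at chr5:157477304-157575823 (GRCh38). In cells with wild-type Smad3 it stood at 9.0 and 12.7 TPM untreated and at 90.0 and 101 TPM treated, in replicates 1 and 2. In Smad3(RA/KP) cells the values were 15.3 and 21.2 TPM untreated and 87.1 and 83.7 TPM treated. Treated and untreated libraries did not overlap in either line, and the treated ones were 10.0 and 7.97 times the untreated ones with wild-type Smad3 and 5.69 and 3.95 times with Smad3(RA/KP). ADAM19 thereby went from the sixth place among these genes in untreated wild-type cells, after ADAM9, ADAM15, ADAM10, ADAMTS10 and ADAM17, to the first place in all 4 treated libraries.

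The log2 fold change of ADAM19 was 3.04 with wild-type Smad3, with an SE of 0.19, a 95% interval of 2.61 to 3.47 and an adjusted p of 9.4e-05 from limma. With Smad3(RA/KP) it was 2.18, with an SE of 0.19, an interval of 1.75 to 2.61 and an adjusted p of 0.000465. Ordered by rise, ADAM19 was number 18 of the 13141 genes in the former and number 61 in the latter.

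The rise of ADAM19 was smaller with Smad3(RA/KP) by 0.86 on the log2 scale, with an interval of the difference from −1.47 to −0.25. This difference did not pass the test, with an adjusted p of 0.881 from limma. Between the untreated lines ADAM19 was 0.70 higher on the log2 scale in Smad3(RA/KP) cells, with both libraries above both of the wild-type ones and an adjusted p of 1. Between the treated lines the difference was −0.16, with an interval of −0.59 to 0.27 and an adjusted p of 0.847.

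The authors' tables also give the mean base coverage of each gene, which was divided here by the mapped gigabases. By this measure untreated ADAM19 was at 5.22 and 7.17 with wild-type Smad3 and at 6.03 and 8.14 with Smad3(RA/KP), so the untreated groups overlapped. The treated values were 50.3 and 53.8 with wild-type Smad3 and 47.0 and 44 with Smad3(RA/KP). On log2 of coverage per gigabase plus 1, the rises were 2.89 and 2.53, the difference of the responses was −0.36 and the difference between untreated lines was 0.17. The gap between the lines in untreated cells and in the response was thus smaller in coverage than in TPM. The rise in each line passed the test in both units. Coverage was an alternative added after seeing the data, and other alternatives kept a larger gap in the response. With FPKM in place of TPM the rises were 2.9248 with wild-type Smad3 and 2.1018 with Smad3(RA/KP). They were 3.0476 and 2.0597 with the GC trend removed, and 2.6736 and 1.97 with a pseudocount of 5 TPM.

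**Figure D3:**
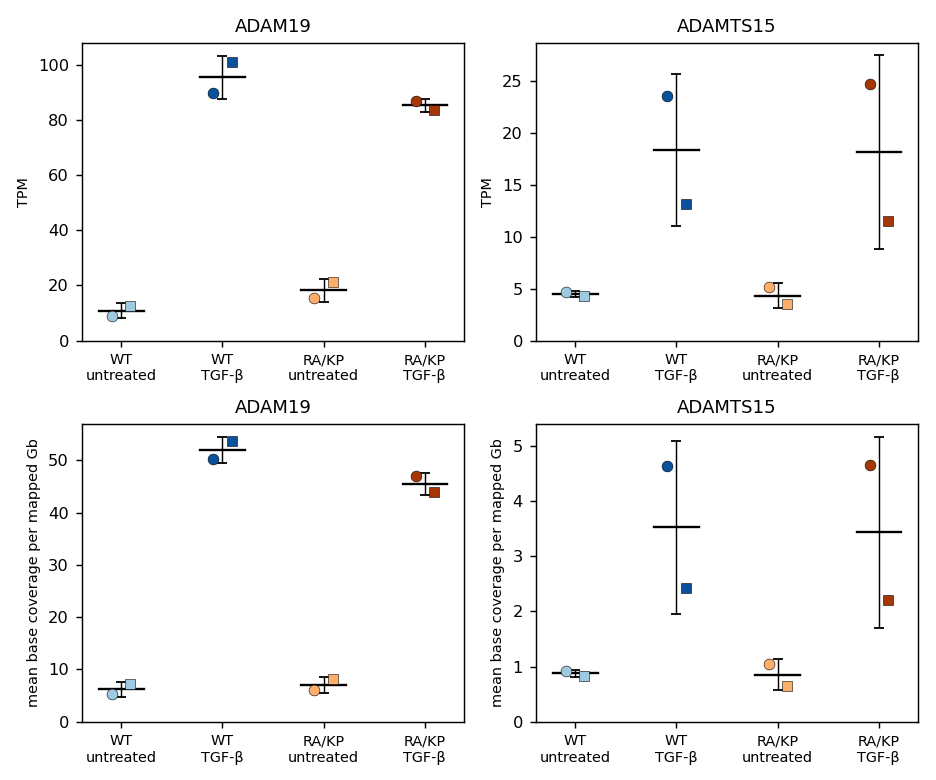
ADAM19 (left) and ADAMTS15 (right) in TPM (top) and in mean base coverage per mapped gigabase (bottom), with circles for replicate 1, squares for replicate 2, and a line and bars for the mean and SD of the 2 libraries of each group. Treated ADAM19 lies at 83.7 to 101 TPM against 9.0 to 21.2 TPM untreated, and ADAMTS15 rises in both replicates, with replicate 1 above replicate 2 in both treated groups.

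To show what lies just upstream of the gene of the set with the largest rise, the stretch between the far end of its RefSeq promoter window and the first base of its record is printed below, 202 bases on the minus strand at chr5:157575824-157576025 (GRCh38), with the CG dinucleotides in capitals.
ADAM19 upstream: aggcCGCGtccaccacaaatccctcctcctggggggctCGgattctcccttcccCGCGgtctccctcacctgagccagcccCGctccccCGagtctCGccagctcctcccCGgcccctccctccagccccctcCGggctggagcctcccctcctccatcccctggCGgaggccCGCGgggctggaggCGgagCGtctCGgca
It is rich in G and C, at 74.8% against a median of 57.4% in the matching stretch of 34796 RefSeq promoters, and holds 16 CG dinucleotides against a median of 8. CAGAC, which contains the core AGAC that Smad3 can bind, did not occur in it on either strand. Nor did the AP-1 motif TGAGTCA or GTCTAGAC, a palindromic Smad element. The core alone was not searched for, and its reverse complement GTCT can be read in the printed stretch. In the 250 bases before the start of each gene, CAGAC was found in 38.0%, TGAGTCA in 4.21% and GTCTAGAC in 0.178% of all promoters. The tested genes of the set had 12 RefSeq windows, where a gene can have several. CAGAC was found for 6 genes (ADAM10, ADAM12, ADAM17, ADAMTS6, ADAMTS10 and ADAMTS13), and 0 held either of the longer motifs. These are matches of letters in a short window and say nothing of binding.

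ADAMTS15 is a secreted protease of the group that cuts the proteoglycans aggrecan and versican. Its record lies on the plus strand of chromosome 11 at chr11:130448974-130476644. In cells with wild-type Smad3 it stood at 4.64 and 4.26 TPM untreated and at 23.5 and 13.1 TPM treated. The Smad3(RA/KP) line had it at 5.19 and 3.48 TPM untreated and at 24.7 and 11.5 TPM treated. The treated libraries did not overlap the untreated ones, and in both lines the treated library of replicate 1 was well above that of replicate 2.

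The log2 fold change of ADAMTS15 was 1.77 with an SE of 0.26 in each line, with an adjusted p of 0.00589 with wild-type Smad3 and 0.00618 with Smad3(RA/KP) from limma. The 95% interval was 1.18 to 2.36 in both. The interval of the difference between the responses ran from −0.84 to 0.83. Without the replicate block the adjusted p became 0.0571 with wild-type Smad3 and 0.0588 with Smad3(RA/KP), and the labels do not state that equal replicate numbers mark a shared experiment. The call in wild-type cells was also lost without untreated replicate 1 (adjusted p = 0.0756), treated replicate 1 (adjusted p = 0.131) or treated replicate 2 (adjusted p = 0.0758), and that in the Smad3(RA/KP) line when its treated replicate 1 was left out (adjusted p = 0.0690). Coverage per mapped gigabase was 0.925 and 0.827 without and 4.63 and 2.42 with TGF-β in cells with wild-type Smad3, and 1.05 and 0.657 without and 4.66 and 2.20 with TGF-β in Smad3(RA/KP) cells.

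Among the other sheddases, the 4 abundant ones did not pass the test in either line. ADAM9, a sheddase with a broad range of substrates, was the most abundant over all libraries, with a mean of 69.9 TPM. It stood at 61.4 and 70.2 TPM untreated and 61.9 and 78.0 TPM treated in wild-type cells, and at 63.0 and 99.5 TPM untreated and 68.0 and 57.1 TPM treated in Smad3(RA/KP) cells. Treated and untreated libraries overlapped in both lines, and the highest of the 8 values was that of untreated Smad3(RA/KP) replicate 2. The log2 fold change was 0.08, with an interval of −0.41 to 0.56, with wild-type Smad3 and −0.34, with an interval of −0.83 to 0.14, with Smad3(RA/KP).

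ADAM10, the main sheddase of Notch receptors and E-cadherin, had overlapping groups in cells with wild-type Smad3, at 30.1 and 30.8 TPM untreated and 26.0 and 30.6 TPM treated. In Smad3(RA/KP) cells it stood at 31.6 and 39.5 TPM untreated and 29.5 and 22.1 TPM treated. The treated values were below the untreated ones in that line, with a log2 fold change of −0.45, an interval of −0.93 to 0.03 and an adjusted p of 0.253 from limma. With wild-type Smad3 the log2 fold change was −0.10, with an interval of −0.58 to 0.37.

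ADAM17, the TNF-α converting enzyme, stood at 14.4 and 13.3 TPM untreated and 13.4 and 17.3 TPM treated in wild-type cells. Its values with Smad3(RA/KP) were 13.2 and 18.8 TPM untreated and 14.6 and 13 TPM treated, so that its groups overlapped in both lines. The log2 fold changes were 0.13, with an interval of −0.38 to 0.64, and −0.18, with an interval of −0.69 to 0.33. The record of ADAM17 shares 17968 bases with IAH1 on the opposite strand, at a mean of 122 TPM, and the use of strand in the counting is not stated, so reads from the shared stretch cannot be assigned to either gene.

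ADAM15, which carries an integrin-binding motif in its disintegrin domain, had 68.4 and 56.1 TPM untreated and 51.1 and 42.6 TPM treated in cells with wild-type Smad3. With the mutant it had 59.6 and 45 TPM untreated and 51.8 and 46.3 TPM treated. The treated libraries were below the untreated ones with wild-type Smad3, with a log2 fold change of −0.40 and an adjusted p of 0.242 from limma, and overlapped with them in Smad3(RA/KP) cells, with a log2 fold change of −0.08. ADAM15 also shares its span with an uncharacterised transcript on the opposite strand, RP11-307C12.11, at a mean of 6.07 TPM.

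ADAM8 and ADAM12 were the remaining sheddases that were tested. ADAM8, best known from leukocytes, had 4.21 and 6.56 TPM untreated and 2.42 and 5.63 TPM treated in wild-type cells, and 5.37 and 4.69 TPM untreated and 6.33 and 8.67 TPM treated in Smad3(RA/KP) cells. The groups overlapped in the former and were separate in the latter. ADAM12, or meltrin alpha, a relative of ADAM19, went from 1.39 and 2.42 TPM to 2.75 and 7.32 TPM in wild-type cells and from 1.51 and 4.39 TPM to 5.42 and 6.05 TPM in Smad3(RA/KP) cells. All treated values of ADAM12 lay above the untreated ones of the same line, with log2 fold changes of 0.97 and 0.87, which did not pass the test (adjusted p of 0.132 and 0.153 from limma). ADAM28 reached 0.188 TPM at most, and ADAM33 and ADAMDEC1 were listed at 0 in all 8 libraries.

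ADAM11 and ADAM23 lack the residues of an active protease and are known as ligands and adhesion proteins of neurons. ADAM11 was at 4.30 and 4.72 TPM untreated and 1.74 and 1.84 TPM treated in cells with wild-type Smad3, and at 4.06 and 3.11 TPM untreated and 2.68 and 2.95 TPM treated in Smad3(RA/KP) cells. Treated libraries lay below untreated ones in both lines, with log2 fold changes of −0.98, with an SE of 0.25 and an adjusted p of 0.0688 from limma, and −0.26, with an adjusted p of 0.573. In wild-type cells this passed the threshold in 4 of 19 alternative fits, among them coverage in place of TPM (log2 fold change −0.77, adjusted p = 0.0493) and removal of the GC trend (−0.97, adjusted p = 0.0227). ADAM23 had 1.51 and 2.1 TPM untreated and 1.14 and 1.63 TPM treated in wild-type cells, and 1.01 and 1.03 TPM untreated and 1.06 and 0.627 TPM treated in Smad3(RA/KP) cells. The Smad3(RA/KP) libraries lay below the wild-type ones in each condition, with log2 differences of −0.47 and −0.37 that did not pass (adjusted p of 1 and 0.783 from limma). The mean of ADAM23 met the minimum of 1 TPM only through the wild-type libraries. The third gene of this kind, ADAM22, reached 0.268 TPM at most.

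The germ cell ADAMs were listed at or near 0. ADAM2, ADAM18, ADAM20, ADAM21, ADAM29 and ADAM32 were listed at 0 in all libraries, and ADAM30 had 0.0032 TPM in a single library. ADAM7, outside this group, was also listed at 0 in all libraries. Of the pseudogenes, ADAM1A was at 0.728 to 2.13 TPM, and ADAM3A, ADAM5 and ADAM6 were listed at 0.

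Of the proteoglycan-cutting ADAMTS genes besides ADAMTS15, only ADAMTS9 was tested. ADAMTS9, a versican-cutting protease, had 0.668 and 0.347 TPM untreated and 0.854 and 1.01 TPM treated in wild-type cells, and 2.37 and 1.87 TPM untreated and 4.35 and 2.08 TPM treated in Smad3(RA/KP) cells. All 4 libraries of Smad3(RA/KP) cells lay above all 4 of wild-type cells. The log2 difference between the lines was 1.05 without TGF-β, with an interval of 0.35 to 1.75, and 1.07 with it, with an interval of 0.38 to 1.77. Neither passed the test across all genes (adjusted p of 1 and 0.612 from limma). ADAMTS9 met the minimum of 1 TPM only through the Smad3(RA/KP) libraries. ADAMTS8 was at 0.278 to 0.915 TPM, ADAMTS1 had 0.065 TPM in a single library, and ADAMTS4, ADAMTS5 and ADAMTS20 were listed at 0.

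ADAMTS10 and ADAMTS6 are linked to fibrillin microfibrils. ADAMTS10 was the most abundant ADAMTS gene, at 19.5 and 19.3 TPM untreated and 21.0 and 20.5 TPM treated in cells with wild-type Smad3. In Smad3(RA/KP) cells it stood at 22.8 and 12.4 TPM untreated and 31.5 and 28.5 TPM treated. The treated libraries lay above the untreated ones in both lines, with log2 fold changes of 0.09, with an interval of −0.44 to 0.63, and 0.80, with an interval of 0.26 to 1.33, and adjusted p of 0.922 and 0.0970 from limma. Without untreated Smad3(RA/KP) replicate 1 the latter became 1.18 and passed the threshold (adjusted p = 0.0127), and without replicate 2 it became 0.41 (adjusted p = 0.330).

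ADAMTS6 had 0.50 and 0.443 TPM untreated and 0.941 and 1.64 TPM treated in wild-type cells. The values with Smad3(RA/KP) were 0.304 and 0.654 TPM untreated and 1.96 and 1.66 TPM treated. All 4 treated libraries lay above all 4 untreated ones, with log2 fold changes of 0.62 and 0.94 that did not pass (adjusted p of 0.367 and 0.124 from limma). With the GC trend of each library removed the value in Smad3(RA/KP) cells was 1.14 (adjusted p = 0.0378). The mean of ADAMTS6 over the 8 libraries, 1.01 TPM, was the lowest of the tested genes, and it met the minimum only through its treated libraries.

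ADAMTS7, which cuts cartilage oligomeric matrix protein, had 3.50 and 2.94 TPM untreated and 3.22 and 3.06 TPM treated in wild-type cells, and 5.48 and 2.62 TPM untreated and 5.30 and 5.10 TPM treated in Smad3(RA/KP) cells. Its groups overlapped in both lines, and its values are uncertain because near-identical pseudogene copies exist, of which ADAMTS7P1 was listed at 0. ADAMTS13, which cuts von Willebrand factor, had 2.1 and 2.49 TPM untreated and 0.993 and 1.19 TPM treated in wild-type cells, with a log2 fold change of −0.66 (adjusted p = 0.322 from limma). In Smad3(RA/KP) cells its values were 1.19 and 1.93 TPM untreated and 1.83 and 1.17 TPM treated. ADAMTS13 overlaps REXO4 on the opposite strand, at a mean of 36.1 TPM. ADAMTS16 was at 2.43 and 1.34 TPM untreated and 1.16 and 0.994 TPM treated in wild-type cells, and at 1.58 and 1.86 TPM untreated and 1.43 and 0.534 TPM treated in Smad3(RA/KP) cells, with log2 fold changes of −0.45 and −0.49 that did not pass.

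Of the procollagen N-proteinases, which trim the ends of fibrillar procollagens, ADAMTS2 and ADAMTS3 were listed at 0. ADAMTS14 had 0.451 TPM with wild-type Smad3 and 0.473 TPM with Smad3(RA/KP) in treated replicate 1, and was listed at 0 in 6 of 8 libraries. ADAMTS12, ADAMTS17, ADAMTS18 and ADAMTS19 were listed at 0 as well. Of the ADAMTSL genes, ADAMTSL5 was tested, at 3.46 and 2.89 TPM untreated and 2.57 and 4.35 TPM treated in wild-type cells and at 3.83 and 3.06 TPM untreated and 1.98 and 4.20 TPM treated in Smad3(RA/KP) cells, with overlapping groups. ADAMTSL4, at 0.524 to 1.56 TPM and a mean of 0.970 TPM, was just under the minimum. ADAMTSL1 and ADAMTSL3 reached 0.077 and 0.335 TPM at most, and ADAMTSL2 was listed at 0. In all, 22 of the 49 genes were listed at 0 in all 8 libraries. Of all 30017 symbols, 18383 had a value above 0 in at least 1 library and the others were listed at 0.

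The comparisons between the lines gave no calls in this set. For the difference of the responses 0 of the 18 genes passed, where 0.0228% of all genes did, and 1 (ADAM19) had an unadjusted p under 0.05 in limma, or 5.56% against 4.29% of all genes. For the untreated lines the count was 0 against 0.0152%, with ADAM19 and ADAMTS9 under an unadjusted p of 0.05, or 11.1% against 2.5% of all genes. For the treated lines it was 0 against 0.00761%, with ADAM8 and ADAMTS9 under an unadjusted p of 0.05, or 11.1% against 7.4%. ADAMTS9 met the minimum mean of 1 TPM only through its Smad3(RA/KP) libraries, so its part in both shares depends on that filter. The interval for a single gene was wide: for the difference of the responses it ran from −1.11 to 0.27 for ADAM9, from −1.02 to 0.33 for ADAM10, from −1.04 to 0.41 for ADAM17, from −0.19 to 0.83 for ADAM15 and from −0.05 to 1.45 for ADAMTS10. Both responses use untreated libraries of their own line only, but all 4 groups share the estimate of the spread.

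Values of several genes lay at the edge of their range in replicate 2 of untreated Smad3(RA/KP) cells, which differed from replicate 1 by GC content. ADAM9, ADAM10 and ADAM17, whose longest transcripts have 37.5, 37.5 and 38.5% GC, each had their highest TPM of the 8 libraries there. The same genes each had their lowest TPM in treated Smad3(RA/KP) replicate 2. ADAMTS7, ADAMTS10 and ADAMTS15, with 65.6, 65.2 and 60.3% GC, each had their lowest in untreated Smad3(RA/KP) replicate 2. ADAM8, ADAM11, ADAM15, ADAMTS13 and ADAMTSL5, at 60.9 to 64.1% GC, had their lowest in other libraries. ADAMTS13 was higher in replicate 2 than in replicate 1 of untreated Smad3(RA/KP) cells, by 0.42 in log2(TPM + 1). Across the 18 genes the difference between replicates 2 and 1 correlated with GC content at a Spearman rho of −0.68 in untreated Smad3(RA/KP) cells, and of −0.16, −0.35 and 0.32 in untreated wild-type, treated wild-type and treated Smad3(RA/KP) cells. The points share their libraries and genes are not independent replicates. Over all genes with a GC value, the fitted log2 fold changes also followed GC content, with a Spearman rho of 0.533 for the response with Smad3(RA/KP), 0.619 for the difference of the responses, −0.375 between the untreated lines and 0.541 between the treated lines, which involves no untreated library, against −0.016 for the response with wild-type Smad3. The part of GC content in the values of single genes was not tested.

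**Figure D4:**
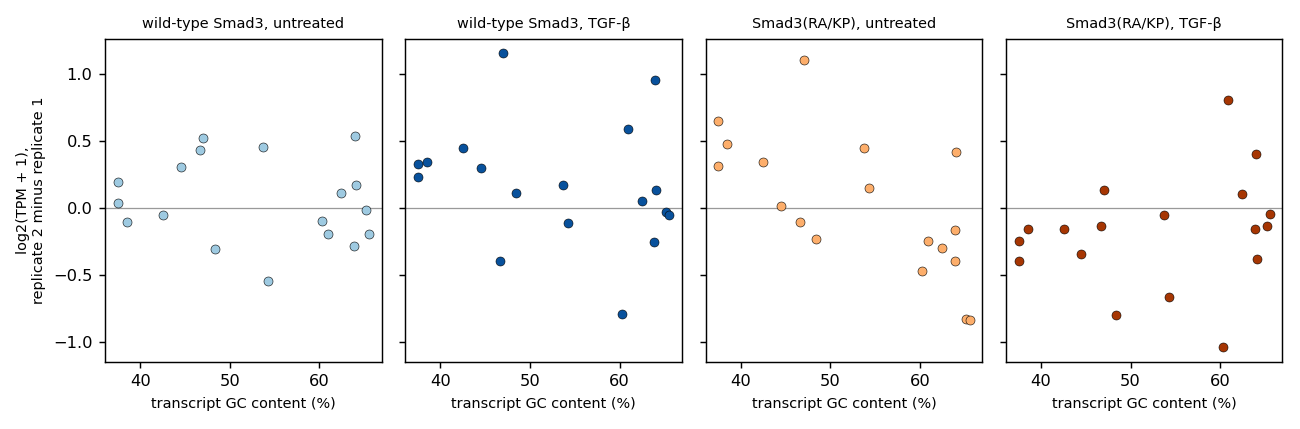
Difference between replicates 2 and 1 in log2(TPM + 1) (vertical axis) of the 18 tested genes against the GC content of their longest GENCODE transcript in percent (horizontal axis), with a panel for each group. In untreated Smad3(RA/KP) cells the points run from above 0 at low GC content to below 0 at high GC content (Spearman correlation −0.68), and the other panels have correlations of −0.35 to 0.32.

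Leaving out either untreated Smad3(RA/KP) library moved the log2 fold change of that line by the same amount in opposite directions, as it must in a group of 2. Without replicate 2 it was −0.06 for ADAM9, −0.27 for ADAM10, 0.05 for ADAM17, 0.41 for ADAMTS10 and −0.02 for ADAMTS7, and without replicate 1 it was −0.62, −0.63, −0.41, 1.18 and 0.73. ADAM19 had 2.31 without replicate 2 and 2.05 without replicate 1, and ADAMTS15 had 1.86 and 1.68, and both were called in either case. The rises of ADAM19 and ADAMTS15 were likewise seen within replicate 1 alone, where ADAM19 was 10.0 and 5.69 times and ADAMTS15 5.06 and 4.76 times its untreated level with wild-type Smad3 and with Smad3(RA/KP).

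The proteins that control these proteases were taken from hand-written lists. Of 13 tested genes for the transport and maturation of ADAM10 and ADAM17, 2 rose and 0 fell in each line, with median log2 fold changes of 0.19 and 0.32 where the medians of all genes were −0.06 and −0.10. FURIN, the proprotein convertase that removes the prodomain of many ADAM and ADAMTS proteases, rose from 44.2 and 44.1 TPM to 179 and 164 TPM with wild-type Smad3 and from 48.1 and 36.3 TPM to 166 and 154 TPM with Smad3(RA/KP). Its log2 fold changes were 1.93 (adjusted p = 0.000386) and 1.91 (adjusted p = 0.00044), each with an SE of 0.16. The other calls were TSPAN15, a tetraspanin partner of ADAM10, at 0.71 with wild-type Smad3 (adjusted p = 0.0369), and RHBDF2, the iRhom2 partner of ADAM17, at 0.99 with Smad3(RA/KP) (adjusted p = 0.0088). A call in a single line is not a difference between the lines, and 0 of the 13 passed the test of that difference.

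Of 7 tested inhibitors, 2 rose and 0 fell in each line, with medians of 0.49 and 0.55. TIMP3, the tissue inhibitor with the broadest reach over ADAM and ADAMTS proteases, was at 0.439 and 0.348 TPM untreated and 9.10 and 6.90 TPM treated in wild-type cells, and at 0.189 and 0.225 TPM untreated and 12 and 4.82 TPM treated in Smad3(RA/KP) cells. The log2 fold changes of TIMP3 were 2.68 (adjusted p = 0.00253) and 2.85 (adjusted p = 0.00221), each with an SE of 0.33, and it met the minimum of 1 TPM only through its treated libraries. Those of TIMP2, which mainly inhibits matrix metalloproteinases, were 1.12 and 1.01, each with an SE of 0.14. Of 3 tested genes for the glycosylation of thrombospondin repeats, a step in the secretion of ADAMTS proteases, 0 passed the test in either line, and 1 had an unadjusted p under 0.05 in limma in each, with medians of −0.12 and −0.21.

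Known substrates of the sheddases moved in both directions. Of 6 tested EGF receptor ligands, 2 rose and 2 fell with wild-type Smad3, and 1 rose and 3 fell with Smad3(RA/KP), with medians of −0.79 and −1.35. AREG (log2 fold changes −2.34 and −2.19) and EREG (−1.60 and −1.79) fell and HBEGF (1.60 and 1.80) rose in both lines. BTC fell with Smad3(RA/KP) (−2.15, adjusted p = 0.0173) and was not called with wild-type Smad3 (−0.98, adjusted p = 0.261). In Smad3(RA/KP) cells it stood at 4.02 and 5.80 TPM untreated and was listed at 0 and 0.727 TPM treated. BTC met the minimum mean of 1 TPM only through its untreated libraries, so its part in the counts of falls depends on that filter. NRG1, the neuregulin cut by ADAM19, rose with wild-type Smad3, from 73.0 and 83.1 TPM to 151 and 191 TPM (log2 fold change 1.11, adjusted p = 0.0202). NRG1 in Smad3(RA/KP) cells had 58.1 and 96.4 TPM untreated and 144 and 125 TPM treated. It was not called there (log2 fold change 0.83, adjusted p = 0.0642 from limma). The difference of its responses was −0.28, with an interval of −0.96 to 0.41, and did not pass the test. Of 5 tested Notch receptors and ligands JAG1 rose in both lines (1.28 and 1.08) and 0 fell, with medians of −0.47 and 0.09. Of 16 tested adhesion and cytokine proteins, 3 rose with wild-type Smad3 (TGFBR1, CDH2 and SDC4) and 2 with Smad3(RA/KP) (TGFBR1 and SDC1), and 0 fell, with medians of 0.02 and −0.09. Here too a call in a single line is not a difference between the lines, and 0 genes of these lists passed the test of that difference.

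Among the substrates of ADAMTS proteases, 2 of 6 tested proteoglycans and associated proteins rose in each line, the link protein gene HAPLN3 (2.07 and 1.94) and THBS1 (1.35 and 1.28), and the medians were 0.57 and 0.12. Of 4 tested genes of procollagens and related substrates 3 rose in each line, COL1A1 (3.79 and 4.05), COL5A1 (2.27 and 2.39) and COL5A2 (1.09 and 1.04), and of 8 tested microfibril partners 3 rose, LTBP2, LTBP3 and LTBP4, all at 0.91 to 1.67. The medians were 1.68 and 1.71 for the former list and 0.01 and 0.56 for the latter. No gene of these lists was called lower. VEGFC, in the list of procollagens and related substrates, had log2 fold changes of −1.02 and −0.86 that did not pass (adjusted p of 0.107 and 0.151 from limma). Of 10 TGF-β target genes used as a check of the treatment, 9 rose with wild-type Smad3 and 8 with Smad3(RA/KP), with medians of 1.71 and 1.68.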

How the data were processed

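Poly(A) RNA of the 8 libraries was selected with Dynabeads, and libraries were made with the Ion Total RNA-Seq Kit v2. The authors aligned the reads to GRCh38 with HISAT2 2.1.0 and obtained values per gene with StringTie 2.0.4 (versions from the submitters' processing notes), without de novo assembly. The sources used here do not name the annotation, so it is not given. The deposited tables hold the TPM, the FPKM and the mean base coverage per gene record, and hold no read counts, which leaves counting error unknown. The authors scaled TPM to a total of 1000000 per library and FPKM to gene length and mapped fragments.

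Records of 1 symbol were summed. Mapped gigabases were derived from the ratio of coverage to FPKM. The 13141 genes whose mean TPM reached 1 were fitted on the log2(TPM + 1) scale with limma 3.58.1 (R 4.3.3), with 4 groups in 1 model, the replicate number as block, trended empirical Bayes variances, 3 residual and 5.90 prior degrees of freedom, and Benjamini-Hochberg adjustment over all genes at 0.05. The study describes 2 independent experiments but not that equal numbers share 1. Deviations of same-numbered libraries from their group means correlated at 0.0484 to 0.332, the lowest within the Smad3(RA/KP) line, so the pairing is an assumption. Whether the replicates are separate cultures is not given in the labels, and p-values then measure only the spread between these libraries. GC content came from the longest GENCODE v44 transcript of each symbol, for 94.6% of the genes tested. Promoter windows came from RefSeq (GRCh38). There were 29 windows for genes of the set, where a gene can have more than 1 window, and not all of the 49 genes had one.

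Genes were described in full where they passed the test or had a mean of at least 10 TPM, and in brief at a mean of at least 1 TPM. From each list up to 3 called genes with the largest change were named, and genes named beyond that were chosen after their values were seen. The gene set and the lists were chosen with earlier results of these data known. The fit was tested on simulated data. Alternatives were other pseudocounts and filters, FPKM, coverage, median-ratio and quantile scaling, no block, removal of the GC trend, the highest record per symbol and leaving out each library. Plots used matplotlib 3.10.9 (Python 3.11.15).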

Additional observations from a re-analysis of the deposited data

Results flagged for a closer look

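ADAM8 was the gene of the set whose replicates moved in opposite directions in the lines. With TGF-β its log2(TPM + 1) changed by −0.61 and −0.19 in replicates 1 and 2 of cells with wild-type Smad3, and by 0.20 and 0.77 with Smad3(RA/KP). The difference of the responses was 0.88, with a 95% interval of −0.05 to 1.81, and did not pass the test of the difference in limma (adjusted p = 0.881). ADAM8 has 64.0% GC in its longest transcript. The untreated Smad3(RA/KP) libraries differed from each other by GC content, and replicate 2 gave ADAM8 4.69 TPM, the lower of its group. The part of GC content in this pattern was not tested.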

How the results depend on the processing

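ADAM19 was called in both lines under all 19 alternatives, at 2.67 to 3.18 with wild-type Smad3 and 1.97 to 2.53 with Smad3(RA/KP). ADAMTS15 kept its direction in all 19, at 1.23 to 2.11 and 1.21 to 2.06, and its call in 14 and 16. With no filter on low values, where more genes were tested, its adjusted p was 0.0563 and 0.0599, so 1 gene of the set was higher in each line. With no replicate block, 1 was higher in each line as well, and the counts of all genes higher went from 387 to 198 and from 458 to 214. Leaving out single libraries gave 1 to 2 genes of the set higher and 0 to 1 lower with wild-type Smad3, and 1 to 3 higher with Smad3(RA/KP). Removal of the GC trend with the replicate block, and coverage, an alternative added after seeing the data, each gave 1 gene lower with wild-type Smad3, ADAM11. ADAM11 was also called without untreated Smad3(RA/KP) replicate 1 or 2 (adjusted p = 0.0390 and 0.0369), which do not enter its difference but its spread. No alternative gave a call in the comparisons between the lines. Of 1518 results of single genes that were called neither in the fit reported nor under the alternative, 99 had the other sign. Over all genes, 91 to 565 were higher and 15 to 451 lower with wild-type Smad3, and 147 to 993 and 16 to 1629 with Smad3(RA/KP), the last without untreated replicate 1. FPKM in place of TPM gave 458 higher and 309 lower genes there, against 458 and 197. The files give no read counts, so depth limits on genes under 1 TPM are unknown.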
